A study of Mus musculus with 864 samples.

Results

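Mbp, Pmp22 and Mal, 3 genes best known from myelin, were followed through single cells of the mouse dorsal root ganglion. They are 3 of 23281 genes in the deposited table, and each has 1 row there. They were chosen by their measured presence in wells of these data, so their levels by cell group are given as a description and carry no test. Mbp was above 0 in 44.7% of the wells kept, Pmp22 in 89.8% and Mal in 14.7%. The cell groups were selected on single genes. Among single-cell wells with 1000 or more genes above 0, wells with Apoe at 5000 RPM (reads scaled to 1000000 per well) or more formed the Apoe gate, intended to hold glia. The remaining wells entered a neuron gate if exactly 1 of 4 genes passed its limit: Th at 300 RPM, Mrgprd at 100 RPM, Tac1 at 300 RPM or Pvalb at 300 RPM.

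Myelin is the stack of membrane that Schwann cells wrap around the larger peripheral axons. Mbp encodes myelin basic protein, which holds the cytosolic faces of the stack together, and the same gene also gives rise to golli transcripts, which are made in some neurons and immune cells. Pmp22 encodes a tetraspan protein of compact peripheral myelin whose gene dosage is altered in hereditary neuropathies, and it is transcribed in many tissues besides Schwann cells. Mal encodes a small proteolipid of lipid rafts that takes part in membrane transport and is found in myelin and in epithelia. In the ganglion, satellite glia surround neuron cell bodies and share several genes with Schwann cells, among them Apoe and Sox10. Neurons with tyrosine hydroxylase (Th) are C-fibre low-threshold mechanoreceptors, whose axons carry no myelin.

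The mice were C57/Bl6 animals of 6 to 8 weeks, and all cells came from dissociated lumbar ganglia of levels L4 to L6. Cells were picked one at a time under a microscope into plates and their RNA was copied by template switching, which marks transcript 5′ ends. Preparations served as replicates: session C females (preparation 5) and males (4) were picked with cooling, and session A females (2) and males (1) and session B males (3) at room temperature. All groups share this strain and age, and no animal is named, so all spreads below are between preparations and may be technical in part. Of the single-cell wells 86.9% were kept. Reads per kept well ranged from 2459 to 31963365, and the preparation medians were 15421, 15597, 198656.5, 1526077.5 and 2573228 in order of number, so that depth and session cannot be told apart.

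The Apoe gate held 25 wells, of which 11 came from preparation 3, 13 from preparation 4 and 1 from preparation 5. The Th gate held 69 wells, the Mrgprd gate 26, the Pvalb gate 38 and the Tac1 gate 16.7% of the kept wells (35, 40, 31 and 10 wells in preparations 1, 3, 4 and 5). A further 33.3% of the kept wells passed several neuron limits, of which 58.01% passed Th and Tac1 together, and 27.2% passed none. Tac1 had reads in 12 of 24 empty or medium wells whose reads could be recovered, up to 33 in a well. Median depth was 251019 reads in the Apoe gate, 679827 in the Th gate, 388680 in the Mrgprd gate, 97763 in the Tac1 gate and 61901 in the Pvalb gate. Levels below are the mean RPM over the wells of a gate within a preparation that holds at least 3 such wells, and then the mean ± SD over preparations.

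The gates matched their names to different degrees. The summed level of 9 Th-neuron markers, Th itself among them, was 4120 to 7608 RPM in the Th gate and at most 852.8 RPM in the preparations of the other 3 neuron gates. Th alone averaged 3134 RPM in the Th gate, where the mean sum was 5491 RPM. The rule kept Th under its limit in the other neuron gates, so this difference is in part given by the rule. A sum without Th is not given here. Of the 25 wells in the Apoe gate, Fabp7, a satellite glia marker, was above 0 in 21, Sox10 in 8 and Prx, a Schwann cell gene, in 6. Mag, another Schwann cell gene, was at 0 in all 25, which allows a share of up to 12%. The summed satellite glia markers without Apoe were exceeded by the summed pan-neuron markers in 10 wells, by macrophage markers in 4 and by fibroblast markers in 1. It is therefore called by its rule and not as a cell type, and the 12 wells in which satellite glia markers led are given separately where it matters.

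RefSeq promoter windows of Pmp22 and Mal (build GRCm38.p6, 250 bases before to 50 after the start) are shown. They make clear which transcripts a deposited value can combine. Windows of Mbp were left out of the selection, so nothing here describes its promoters. RefSeq gives 4 starts for Pmp22, on the plus strand of chromosome 11, and the windows run from CG-poor to CG-rich. The outermost ones are printed 5′ to 3′ with CG dinucleotides in capitals, chr11:63128732-63129031 first and chr11:63132553-63132852 second, followed by the single window of Mal on the minus strand, chr2:127656646-127656945.
Pmp22 first start: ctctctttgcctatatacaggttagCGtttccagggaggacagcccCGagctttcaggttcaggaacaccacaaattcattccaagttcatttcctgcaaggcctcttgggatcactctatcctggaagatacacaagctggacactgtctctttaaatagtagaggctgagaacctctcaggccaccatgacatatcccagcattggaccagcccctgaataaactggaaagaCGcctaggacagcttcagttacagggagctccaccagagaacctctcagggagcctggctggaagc
Pmp22 last start: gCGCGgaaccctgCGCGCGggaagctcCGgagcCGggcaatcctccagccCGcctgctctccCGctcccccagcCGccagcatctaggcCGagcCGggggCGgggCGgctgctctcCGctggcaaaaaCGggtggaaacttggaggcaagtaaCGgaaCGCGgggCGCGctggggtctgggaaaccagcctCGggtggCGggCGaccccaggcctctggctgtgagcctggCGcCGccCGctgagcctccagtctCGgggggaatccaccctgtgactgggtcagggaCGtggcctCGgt
Mal: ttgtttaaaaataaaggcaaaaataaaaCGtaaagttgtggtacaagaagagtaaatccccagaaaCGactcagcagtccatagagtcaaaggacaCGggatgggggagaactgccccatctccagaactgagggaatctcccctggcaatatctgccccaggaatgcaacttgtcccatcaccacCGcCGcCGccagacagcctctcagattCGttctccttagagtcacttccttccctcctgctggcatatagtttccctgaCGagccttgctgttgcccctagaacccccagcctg
The first Pmp22 window holds 3 CG dinucleotides, the last 30 and the Mal window 8, against a median of 7 over 32851 windows. Letters searched on both strands were ACAAAG (a SOX motif, in 18.7% of all windows), GCGGGGGCG or GCGTGGGCG (EGR motifs, in 3.47%) and TATAAA (in 13.6%), and none of the 5 windows of Pmp22 and Mal held any of them. The deposited values were made on build mm9 with 1 value per gene and do not separate these starts, nor the golli transcripts of Mbp from the others.

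Mbp was high in the Apoe gate and, among the neurons, in the Th gate. Its preparation means were 636.97 and 956.3 RPM in the Apoe gate (796.6 ± 225.8 RPM, SD, n = 2), with wells from 0 through a median of 77.9 to 6303 RPM. In the Th gate they were 155.2, 955.75, 198.4, 323.4 and 311.1 RPM in preparations 1 to 5 (388.8 ± 325.03 RPM, n = 5). The Th gate's ranges and those of the Apoe gate overlapped. In the Tac1 gate they were 48.9, 39.3, 51.4 and 131.5 RPM in preparations 1, 3, 4 and 5 (67.7 ± 42.8 RPM, n = 4). The Mrgprd gate was at 0 in preparations 1 to 3 and at 68.3 and 69.9 RPM in preparations 4 and 5 (27.7 ± 37.9 RPM, n = 5), and the Pvalb gate lay between 0 and 82.7 RPM (25.2 ± 38.6 RPM, n = 4). The Th gate was the highest neuron gate in 5 of 5 preparations, and no preparation of another neuron gate reached its lowest value, while the Tac1, Mrgprd and Pvalb gates overlapped one another. Preparation 2 has 3 Th wells, of which 1 held 2178 RPM and sets its mean.

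**Figure D1:**
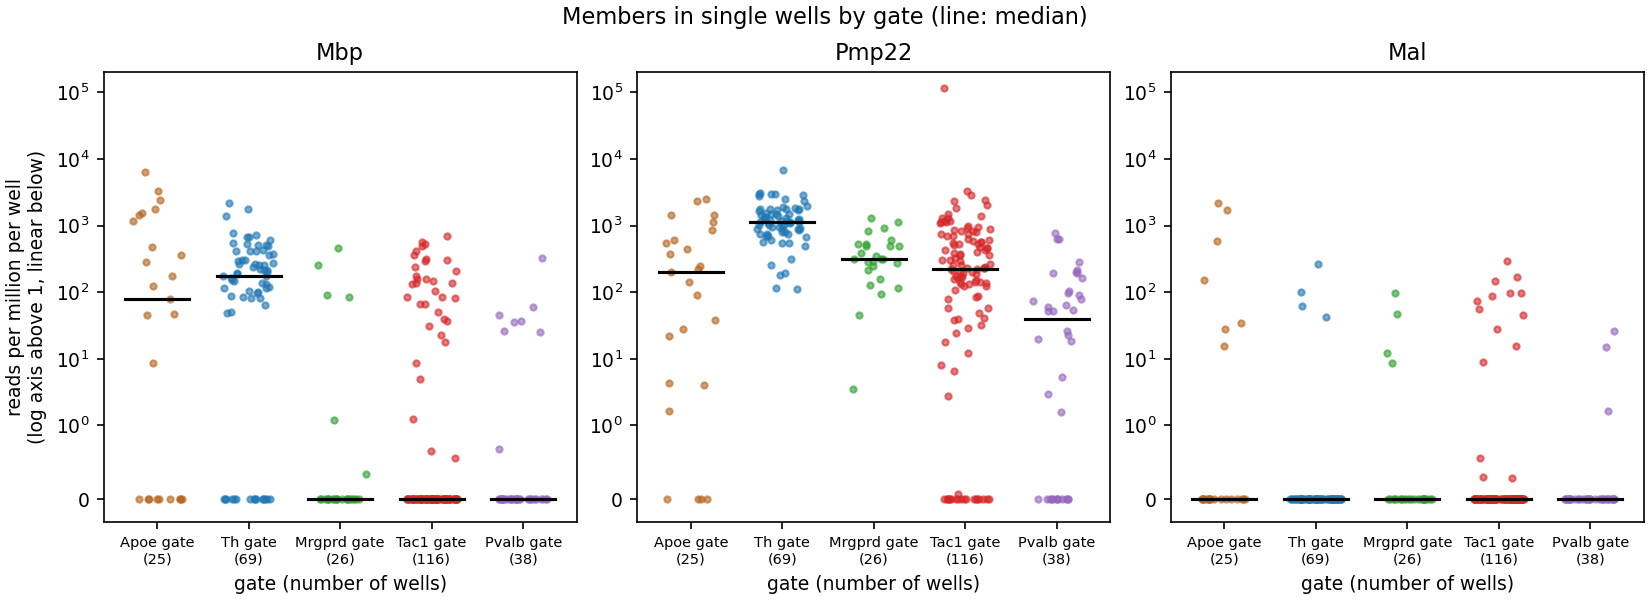
RPM of Mbp, Pmp22 and Mal (vertical, log axis above 1) in each kept well of the Apoe gate and the 4 neuron gates (horizontal, number of wells in brackets), with a line at the median. Mbp has a median of 177.15 RPM in the Th gate and of 0 in the Mrgprd, Tac1 and Pvalb gates, and Mal is at 0 in most wells of every gate.

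Well by well, Mbp was above 0 in 64% of the wells of the Apoe gate (95% Wilson interval 44.5% to 79.8%), in 78.3% of the Th gate (67.2% to 86.4%), in 23.1% of the Mrgprd gate (11.03% to 42.1%), in 30.2% of the Tac1 gate (22.6% to 39.1%) and in 21.1% of the Pvalb gate (11.1% to 36.3%). Reads carry no molecular identifiers. The intervals pool wells of all preparations as if independent, so they cover counting error only and not the spread between preparations. With wells thinned to 3000 reads, leaving out 1 well of the Apoe gate and 3 of the Tac1 gate that had fewer or from which no reads could be recovered, the expected shares were 40.7% in the Apoe gate, 43.1% in the Th gate, 6.75% in the Mrgprd gate, 10.8% in the Tac1 gate and 3.41% in the Pvalb gate. The Th gate thus stood above the other neuron gates at equal depth as well. In control wells with recovered reads, at a median depth of 2956 reads, Mbp had reads in 3 of 24, never more than 1. The expected shares of the Mrgprd, Tac1 and Pvalb gates at 3000 reads were not above that. By preparation, 8 of 18, 3 of 3, 9 of 11, 25 of 28 and 9 of 9 Th wells had Mbp. In the 13 Mrgprd wells of preparations 1 to 3 it was found in none, which allows up to 23.1% of wells with a read. Of these, 6 were from preparation 1 and 3 from preparation 2, whose median depths were 15421 and 15597 reads, so a level like that of preparations 4 and 5 could be missed there.

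The wells that passed both the Th and the Tac1 limit carried Mbp at a like level. Their preparation means ran from 248.1 to 350.7 RPM (294.2 ± 38.1 RPM, n = 5), and 76.9% of these wells had a value above 0. Of the 60 wells over the Mrgprd and Tac1 limits 8.33% had one, and of the 26 over the Tac1 and Pvalb limits 38.5%.

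Pmp22 was above 0 in most wells of every gate and was high in the Th gate. Its preparation means there were 1141, 1074, 1600.3, 1450.3 and 1227 RPM (1299 ± 220.3 RPM, n = 5), and all 69 wells were above 0, from 113.3 RPM through a median of 1133 RPM to 6758 RPM. The Apoe gate had 567.96 and 496.5 RPM (532.2 ± 50.6 RPM, n = 2), and 21 of its 25 wells were above 0. In the Mrgprd gate the values were 489.9, 213.97, 530.3, 303.3 and 546.2 RPM (416.7 ± 149.2 RPM, n = 5), again with all 26 wells above 0. The Pvalb gate was lowest, with 84.1, 178.5, 86.6 and 162.9 RPM in preparations 1 to 4 (127.99 ± 49.7 RPM, n = 4) and 68.4% of wells above 0. The Th gate lay above the Apoe, Mrgprd and Pvalb gates in every preparation in which both were measured, by 2.25 to 5.02 times over the Mrgprd gate and by 6.02 to 18.5 times over the Pvalb gate.

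One well decides the Tac1 value. The Tac1 gate had 520.1, 351.2, 4224 and 342.1 RPM of Pmp22 in preparations 1, 3, 4 and 5 (1359 ± 1911 RPM, n = 4), because 1 well of preparation 4 held 114170 RPM, 2303 of its 20172 reads. The next highest kept well held 6758 RPM. Without that well preparation 4 came to 558.7 RPM and the gate to 443.03 ± 112.5 RPM, below every preparation of the Th gate and overlapping the Apoe and Mrgprd gates. At 3000 reads per well, with the same wells left out, the expected share of wells with Pmp22 was 43.6% in the Apoe gate, 91.9% in the Th gate, 62.2% in the Mrgprd gate, 50.5% in the Tac1 gate and 20.6% in the Pvalb gate. Control wells held Pmp22 reads in 9 of 24, with 6 at most, at a median depth of 2956 reads. The expected share of the Pvalb gate at 3000 reads was below that of the control wells, and that of the Apoe gate was close to it. In these gates a value above 0 is thus not set apart from the background of control wells by presence alone.

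**Figure D2:**
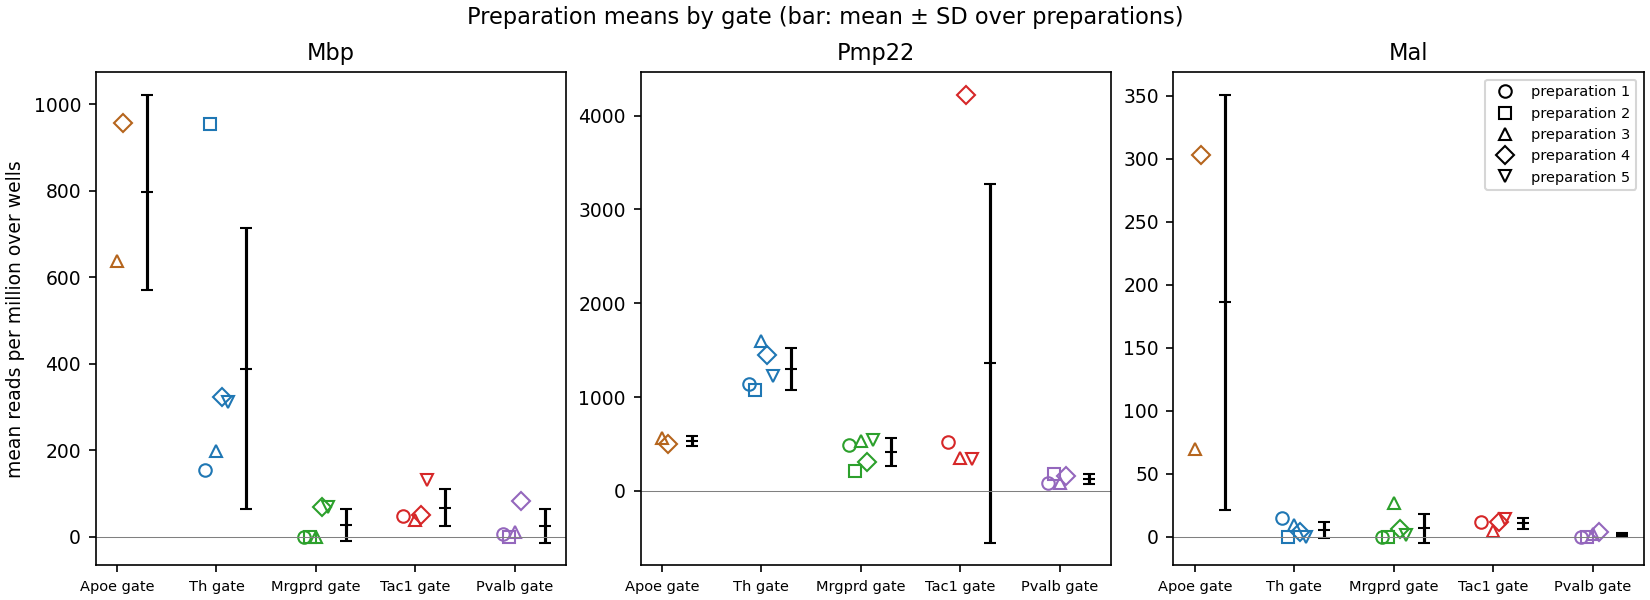
Mean RPM of each member over the wells of a gate in a preparation (symbols) with the mean ± SD over preparations (bars), Apoe gate first and then the neuron gates. The Th gate is above the other neuron gates for Mbp in every preparation, the single high Tac1 point of Pmp22 (4224 RPM) rests on 1 well, and Mal is above 50 RPM in the Apoe gate alone.

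Mal behaved differently from both. In the Apoe gate it averaged 69.6 and 302.7 RPM in preparations 3 and 4 (186.2 ± 164.8 RPM, n = 2), but 18 of the 25 wells were at 0 and 3 wells of 500 RPM or more carried the mean, with 2173, 1719 and 576.4 RPM. All preparation means of the neuron gates lay between 0 and 27.3 RPM. The Th gate averaged 5.60 ± 6.50 RPM (n = 5), the Mrgprd gate 6.99 ± 11.6 RPM (n = 5), the Tac1 gate 10.7 ± 4.04 RPM (n = 4) and the Pvalb gate 1.53 ± 1.85 RPM (n = 4), and these 4 overlapped. Mal was above 0 in 28% of wells of the Apoe gate, 5.80% of the Th gate, 15.4% of the Mrgprd gate, 12.9% of the Tac1 gate and 7.89% of the Pvalb gate. It was in 0 of 24 control wells, which allows up to 12.5%.

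The most frequent Mal among neurons was in wells that passed the Mrgprd and Tac1 limits together: 25 of 60 were above 0 (41.7%), at 27.3 ± 13.7 RPM over 5 preparations. Of the 30 such wells with 50000 reads or more 17 held Mal, against 4 of 17 in the Mrgprd gate and 3 of 48 in the Th gate. In the 26 wells over the Tac1 and Pvalb limits Mal was found in none, which allows up to 11.5%.

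Apoe, which glia hold in abundance, was read in the same wells. Mbp was above 0 in 27 of the 30 Th wells with Apoe and in 27 of the 39 with Apoe at 0. Median Mbp was 180.8 RPM in the Th wells with Apoe and 162.6 RPM in those with Apoe at 0. Median Pmp22 was 1157 RPM in the Th wells with Apoe and 1133 RPM in those with Apoe at 0. A shallow well can miss a gene, so the Th wells with 50000 reads or more were taken alone: 19 of these 48 had Apoe at 0. Of the 19, Mbp was present in 17 with a median of 216.6 RPM over all 19, Pmp22 in 19 with a median of 1113 RPM, and Mal in none, which allows up to 15.8%.

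Relative to Apoe, Mbp and Pmp22 had higher levels in each of the 4 neuron gates than in the Apoe gate. Apoe itself set these gates (mean 19197 RPM in the Apoe gate, 145.8 to 441.1 RPM in the neuron gates). A higher ratio in the neuron gates is thus largely given by the rule. Fabp7 was higher too in all neuron gates but Mrgprd, and Mal in all but Pvalb. Per 1000 RPM of Apoe, Mbp came to 2666 RPM in the Th gate, 62.7 in the Mrgprd gate, 345.1 in the Tac1 gate and 77.4 in the Pvalb gate, and to 41.5 in the Apoe gate. Pmp22 came to 8907 RPM per 1000 RPM of Apoe in the Th gate, 944.8 in the Mrgprd gate, 6925 in the Tac1 gate with its 1 extreme well and 393.1 in the Pvalb gate, and to 27.7 in the Apoe gate. Fabp7 came to 403.1 in the Th gate, 158.1 in the Mrgprd gate, 487.4 in the Tac1 gate and 504.01 in the Pvalb gate, and to 230.8 in the Apoe gate. Mal came to 38.4 RPM per 1000 RPM of Apoe in the Th gate, 15.8 in the Mrgprd gate, 54.7 in the Tac1 gate and 4.69 in the Pvalb gate, and to 9.70 in the Apoe gate.

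Markers of other cells in the Th gate differed by cell type. Among the neuron gates the Th gate had the lowest mean sum for satellite glia and macrophages and the highest for endothelial cells. For Schwann cell markers the Th and Tac1 gates were close. Summed over 15 satellite glia markers, Apoe among them and all 15 above 0, the preparations of the Th gate had 161.4 to 1596 RPM, against 33215 to 40411 RPM in the Apoe gate. The Mrgprd gate had 414.5 to 2040 RPM, the Tac1 gate 605.8 to 2125 RPM and the Pvalb gate 2536 to 6031 RPM. Of 14 Schwann cell markers 10 were above 0 in the Th gate, at 55.02 to 267.7 RPM in sum (mean 180.95 RPM) with Mag and Pmp2 among those at 0, against 46.6 to 99.3 RPM in the Mrgprd gate, 92.7 to 265.9 RPM in the Tac1 gate (mean 178.9 RPM) and 104.2 to 136.7 RPM in the Pvalb gate. Endothelial markers, 9 of 11 above 0 in the Th gate, averaged 189.8 RPM in sum in the Th gate, with 87.6 RPM in the lowest preparation, and 17.1 RPM in the Mrgprd gate, 105.4 RPM in the Tac1 gate and 121.5 RPM in the Pvalb gate. Macrophage markers averaged 10.1 RPM in sum in the Th gate, and 24.1 to 87.4 RPM in the other neuron gates. Fibroblast markers averaged 473.9 RPM in the Th gate, and 281.7 RPM (Pvalb) to 1610 RPM (Tac1) in the others. Mural markers averaged 240.5 RPM in the Th gate, and 21.9 RPM (Pvalb) to 472.2 RPM (Tac1) in the others. The part of these cells in the levels of the members was not tested.

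**Figure D3:**
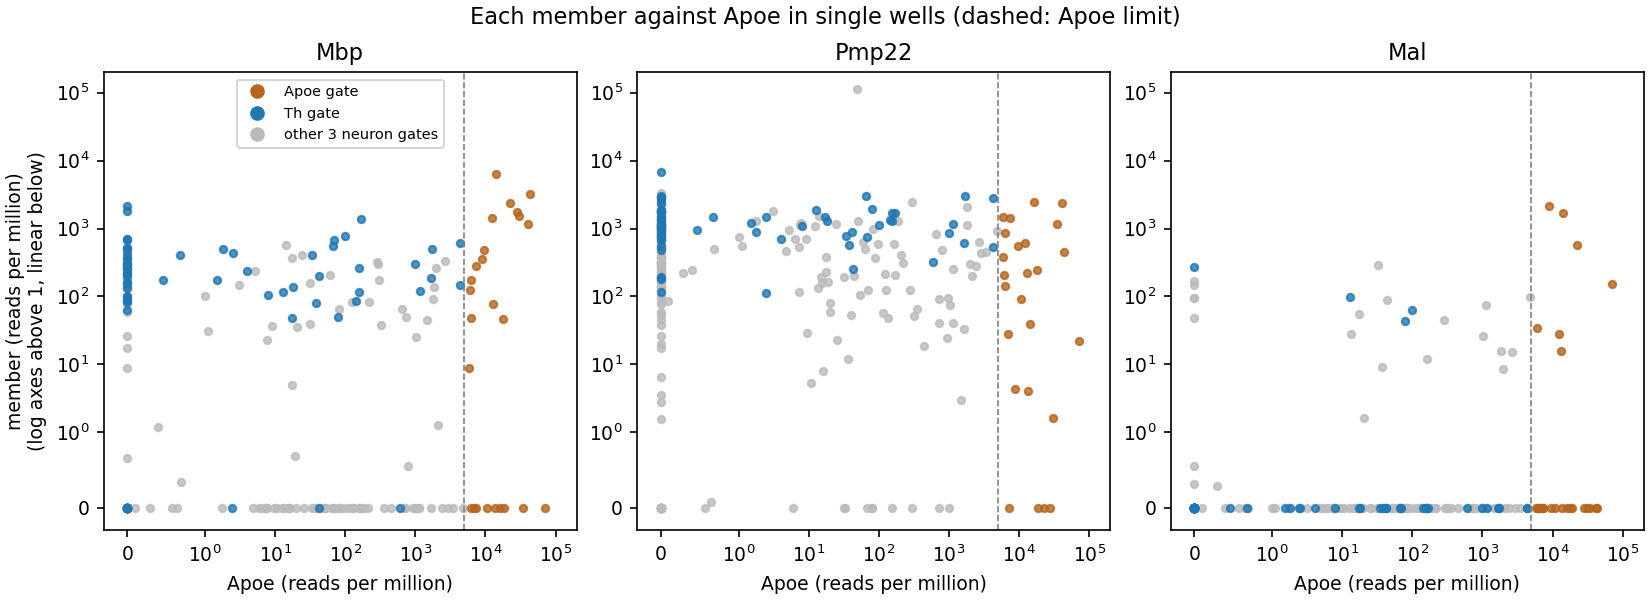
Each member (vertical) against Apoe (horizontal), both in RPM on log axes above 1, in wells of the Apoe gate, the Th gate and the other 3 neuron gates, with the Apoe limit of 5000 RPM dashed. In Th wells the medians of Mbp and Pmp22 are 180.8 and 1157 RPM with Apoe above 0, and 162.6 and 1133 RPM with Apoe at 0.

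Over the pooled wells of the neuron gates, but not inside every gate, Mbp and Pmp22 were ranked more alike than either was with Mal. Over all wells of the 4 neuron gates together, with ranks taken within each preparation, Spearman's rho was 0.51 between Mbp and Pmp22, 0.13 between Mbp and Mal and 0.04 between Pmp22 and Mal. These are descriptions over wells that share library and depth, and the gates themselves differ in Mbp and Pmp22. Mal was above 0 in 10.4% of the pooled wells, and its tied zeros limit how high a rho with Mal can be. Inside single gates, rho between Mbp and Pmp22 was 0.40 in the Th gate (69 wells), 0.34 in the Tac1 gate, 0.18 in the Mrgprd gate (26) and -0.04 in the Pvalb gate (38). With Mal, rho of Mbp was 0.09 in the Th gate, 0.13 in the Tac1 gate, 0.53 in the Mrgprd gate and 0.47 in the Pvalb gate, and rho of Pmp22 was 0.03, 0.07, 0.28 and 0.20 in the same order. In the Mrgprd and Pvalb gates these rest on 4 and 3 wells with Mal. With Apoe, rho over the pooled wells was 0.05 for Mbp, -0.04 for Pmp22 and 0.14 for Mal, while Fabp7 reached 0.50. In the 20 wells with Apoe from 1000 to 5000 RPM, mean Mbp was 122.7 RPM, against 109.4 RPM in wells with Apoe at 0. Median Mbp was 34.9 RPM in those 20 wells, 60% of them above 0, against a median of 0 and 32.6% above 0 at Apoe 0. Mean Fabp7 was 926 RPM in those 20 wells, against 4.87 RPM at Apoe 0. Depth differed too, with a median of 1359715 reads in the 20 wells, against 28597 reads at Apoe 0.

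In the Apoe gate the members did not move as a group. Over its 25 wells rho was -0.02 between Mbp and Pmp22, 0.32 between Mbp and Mal and -0.19 between Pmp22 and Mal. All 3 were above 0 in 5 wells, and none of them in 2. Mbp was at 1000 RPM or more in 7 wells, and in 4 of these Pmp22 was under 50 RPM. The 3 wells with Mal at 500 RPM or more all had Pmp22 under 50 RPM. In the 12 wells led by satellite glia markers Mbp had a median of 1313 RPM and was above 0 in 9, Pmp22 had a median of 156.3 RPM and was above 0 in 10, and Mal was above 0 in 5.

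The genes whose pattern over the wells of the neuron gates was most like that of Mbp were Fam19a4 (rho 0.52), Pmp22 (0.51), Kcnd3 (0.50), Th itself (0.48) and Gm7271 (0.48). Since wells were gated on Th, a likeness to Th over the pooled wells restates the difference between gates, and inside the Th gate rho with Th was -0.10 for Mbp and 0.18 for Pmp22. For Pmp22 they were Gm7271 (0.56), P2ry1 (0.55), Fam19a4 (0.54), Sdcbp (0.52) and Fxyd6 (0.51). Fam19a4 encodes a secreted protein known from C-fibre low-threshold mechanoreceptors, Kcnd3 a potassium channel, P2ry1 a nucleotide receptor, Sdcbp the scaffold syntenin and Fxyd6 a regulator of the sodium pump. For Mal the likeness was weaker, with Sepp1 (0.31), Lpar3 (0.30), Actn1 (0.27), Trpa1 (0.27) and Gamt (0.26). Sepp1 encodes a selenium carrier, Lpar3 a lysophosphatidic acid receptor, Actn1 an actin crosslinker, Trpa1 an irritant-gated channel and Gamt an enzyme of creatine synthesis. Apoe stood 54.8% of the way down the ranked genes for Mbp, 68.4% for Pmp22 and 8.44% for Mal.

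Other genes of myelin were compared between gates with limma on log2(mean RPM + 5), with preparation as a block. Of 24 listed compact myelin and myelin membrane genes, 23 were in the table and 12 reached the minimum mean of 5 RPM. Some passed it through the Apoe gate alone (Cmtm5 and Prx stayed under 5 RPM in every neuron gate), and for those a higher level in that gate was a condition of being tested. In the Apoe gate, 8 of the 12 were higher than in the neuron gates at an adjusted p under 0.05 and none lower, beside 3.53% of all 10120 genes higher and 1.93% lower. The 8 include Cmtm5 and Prx. The list's median log2 difference was 2.95, against -0.43 over all genes. Cmtm5, a MARVEL domain protein, averaged 275.6 ± 152.1 RPM in the Apoe gate, and 0.245 to 4.22 RPM in the neuron gates (log2 difference 5.37, given without a test since that gate alone brought it over the minimum). Gpm6b, a membrane glycoprotein of glia and neurons, averaged 1676 ± 1520 RPM in the Apoe gate (n = 2), and 19.04 to 85.8 RPM in the neuron gates (log2 difference 4.60, SE 0.83, limma adjusted p = 0.000300). Without preparation 3 Gpm6b missed the threshold (limma adjusted p = 0.0937).

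In the Th gate the same list did not move with Mbp and Pmp22. Of the 12 genes, 1 was higher than in the other neuron gates and none lower, beside 1.61% of all genes higher and 0.958% lower. The list's median log2 difference was -0.15, against -0.06 over all genes. Gpm6b averaged 23.95 ± 27.1 RPM in the Th gate, and 19.04 to 85.8 RPM in the other 3 (log2 difference -1.11, SE 0.56, limma adjusted p = 0.404). The gene that was higher was Tspan2, a tetraspanin of myelinating glia, at 127.3 ± 38 RPM in the Th gate, and 5.72 to 66.2 RPM in the others (log2 difference 2.24, SE 0.62, limma adjusted p = 0.0395). Its call was lost without any one of the 5 preparations (adjusted p 0.0814 to 0.156). Cnp, a phosphodiesterase of myelin cytoplasm, had 87.2 ± 43.8 RPM in the Th gate and missed the threshold (log2 1.26, SE 0.57, adjusted p = 0.325).

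**Figure D4:**
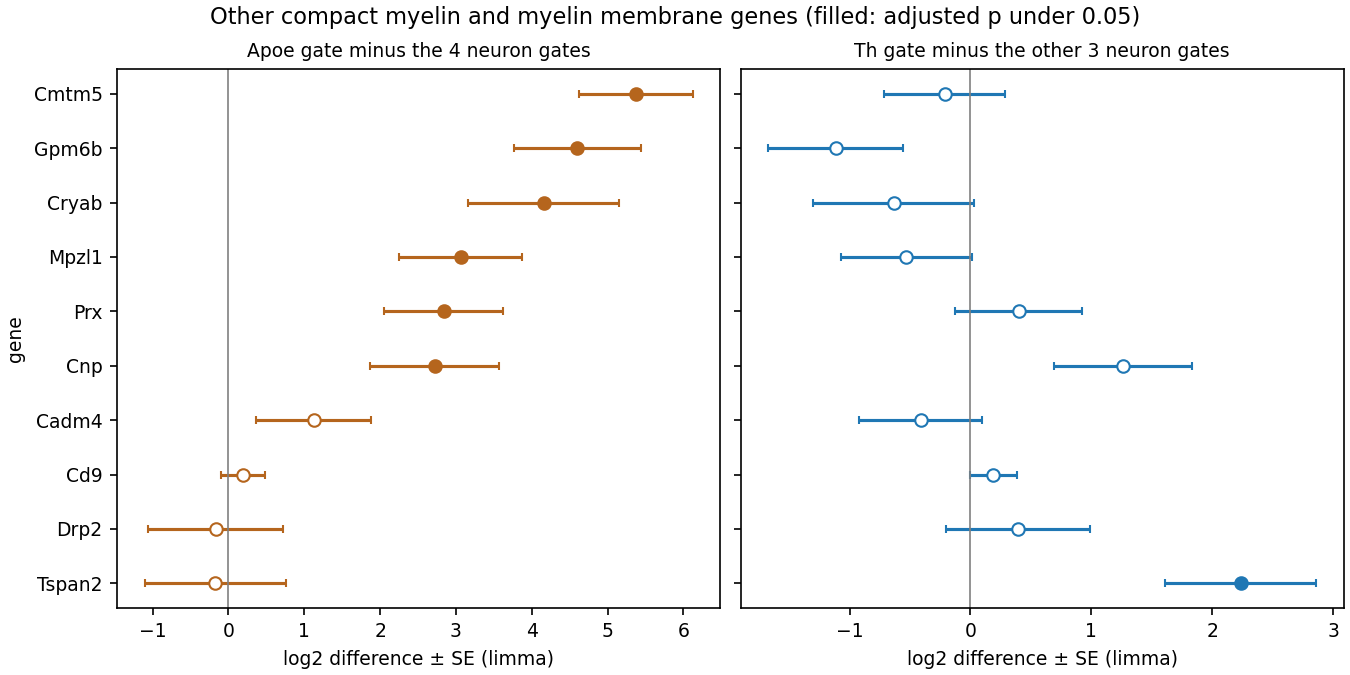
Log2 differences ± SE (horizontal) of 10 of the 12 other compact myelin and myelin membrane genes that reached 5 RPM (vertical), for the Apoe gate on the left and the Th gate on the right, with filled symbols where the adjusted p was under 0.05. In the Apoe gate 6 of these 10 are filled, and in the Th gate Tspan2 alone.

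Cd9, a tetraspanin found in myelin and in many other cells, was the 1 gene of the list called in the Mrgprd gate and in the Tac1 gate. It averaged 1535 ± 365.5 RPM in the Mrgprd gate, and 83.7 to 1873 RPM in the other 3 (log2 difference 1.70, limma adjusted p = 9.21e-08), beside 2.07% of all genes higher and 3.46% lower in that gate. In the Tac1 gate it averaged 1873 ± 600.98 RPM, and 83.7 to 1535 RPM in the other 3 (log2 2.01, limma adjusted p = 1.38e-07), beside 0.534% of all genes higher and 0.0692% lower. The Pvalb gate was low in Cd9 (83.7 ± 7.04 RPM, log2 -3.90), Tspan2 (5.72 ± 6.10 RPM, log2 -2.78) and Cnp (9.28 ± 7.70 RPM, log2 -2.50), the 3 of 12 genes called there, beside 4.81% of all genes higher and 3.4% lower. The call of Cnp was lost without preparation 1 (adjusted p = 0.117) and that of Tspan2 without preparation 3 (0.117) or 4 (0.0519).

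Of 10 measured regulators of Schwann cell myelination, 5 were higher in the Apoe gate and none lower, beside 3.53% of all genes higher and 1.93% lower, with a median log2 difference of 2.54, against -0.43 over all genes. Gpr126, Egr2 and Erbb3 of the 5 stayed under 5 RPM in every neuron gate. Sox10 and Dhh averaged 2.67 and 4.44 RPM over the 4 neuron gates, also under the minimum mean. A higher level in the Apoe gate was thus a condition of all 5 being tested. The 5 include Gpr126, an adhesion receptor needed for Schwann cell myelination (358.4 ± 378.5 RPM, log2 5.37), and the transcription factors Sox10 (255.3 ± 207.4 RPM, log2 4.76) and Egr2 (222.5 ± 299.6 RPM, log2 3.59). Egr2 had 10.67 RPM in 1 preparation and 434.3 RPM in the other, and was not called without preparation 3. Dhh, a signal from Schwann cells to the perineurium, had 79.8 ± 89.8 RPM (log2 3.05), a call lost without preparation 4. On recovered reads edgeR called none of the 5, and DESeq2 called Sox10 and Erbb3 alone. None of the 10 was called by limma in any neuron gate. In the Th gate 1 had an unadjusted p under 0.05, beside 1286 of all 10120 genes, and their median log2 difference was -0.23. Of 19 measured genes of myelin lipid synthesis, 1 was higher in the Apoe gate (Gal3st1, the sulfatide sulfotransferase, log2 3.22, lost without preparation 3 or 4) and 1 lower (Degs1, a dihydroceramide desaturase, log2 -1.35, lost without preparation 4). Degs1 came out at 0.35 with edgeR and 0.27 with DESeq2. None of the 19 was called by limma in the Th gate, where 3 had an unadjusted p under 0.05 and the median log2 difference was 0.07, or in the Tac1 gate, where none had. The sterol genes Idi1 (log2 1.84) and Sc4mol (log2 1.70) were among 3 of the 19 higher in the Mrgprd gate, beside 2.07% of all genes higher and 3.46% lower. Sqle (log2 -2.23), Fdft1 (log2 -1.09) and Hmgcs1 (log2 -0.92) were among 4 of the 19 lower in the Pvalb gate, beside 4.81% of all genes higher and 3.4% lower. Without 1 preparation at a time, Idi1 and Fdft1 lost the call in all 5 fits, Sc4mol in all but that without preparation 3, Hmgcs1 without preparation 1, 2 or 4 and Sqle without preparation 4.

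Relatives of the members had patterns of their own. Of the PMP22 and EMP family without Pmp22, 3 of 6 genes were measured. None of the 3 was called by limma in the Th gate, nor had an unadjusted p under 0.05. Emp2, an epithelial membrane protein, was higher in the Apoe gate (358.9 ± 431.1 RPM, log2 4.57), a call lost without preparation 3 (adjusted p = 0.344). Emp3, of the same kind, was higher in the Tac1 gate (218.2 ± 60.6 RPM, log2 2.59, a call lost without preparation 1, 3, 4 or 5) and lower in the Pvalb gate (4.39 ± 7.22 RPM, log2 -3.36). Tmem47, a tetraspan junction protein, was higher in the Pvalb gate (1304 ± 722.98 RPM, log2 3.87) and lower in the Mrgprd gate (88.4 ± 143.9 RPM, log2 -3.04), the second of these calls being lost without preparation 4 or 5.

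Of the MAL and MARVEL domain family without Mal, 13 of 18 genes were measured. In the Th gate 3 were higher and none lower, beside 1.61% of all genes higher and 0.958% lower, with a median log2 difference of 0.43, against -0.06 over all genes. Plp2, a proteolipid of the endoplasmic reticulum, averaged 148.4 ± 29.4 RPM there, and 7.14 to 63.96 RPM in the other neuron gates (log2 2.42, SE 0.56, limma adjusted p = 0.00794). Its call was lost without preparation 1 (adjusted p = 0.0656) and without preparation 3 (0.0716). Cklf, a chemokine-like factor, averaged 92.4 ± 110.6 RPM in the Th gate, and 9.11 to 11.5 RPM in the others (log2 2.66, adjusted p = 0.0156), a call lost without preparation 1, 3 or 4 and not made by edgeR on recovered reads (adjusted p = 0.420). Synpr, a synaptic vesicle protein, was higher in both the Th gate (log2 1.04, lost without preparation 5 at an adjusted p of 0.0609) and the Mrgprd gate (log2 1.90). Mal2, a relative of Mal with a role in epithelial transcytosis, was lower in the Apoe gate, where it averaged 3.93 ± 2.57 RPM, against 5.67 to 404.9 RPM in the neuron gates (log2 -3.45, limma adjusted p = 0.00242, but 0.192 without preparation 4). Among neurons Mal2 was higher in the Mrgprd gate (404.9 ± 229.3 RPM, log2 2.50) and lower in the Pvalb gate (5.67 ± 8.93 RPM, log2 -4.54). In the Pvalb gate Synpr, Plp2 (lost without preparation 3) and Myadm were lower too and Syp higher (lost without preparation 1, 2 or 3), beside 4.81% of all genes higher and 3.4% lower. None of the 13 was called by limma in the Tac1 gate, with 3 at an unadjusted p under 0.05.

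Sex was compared over the Th and Mrgprd gates, the only ones measured in all 5 preparations, as female minus male within sessions A and C. Mbp had 477.9 and 190.5 RPM in females of sessions A and C, and 77.6 and 195.9 RPM in males (log2 difference 1.25, SE 0.59, limma p = 0.0335 unadjusted, adjusted p = 0.999). Females were higher in session A and not in session C, and preparation 2 holds the Th well of 2178 RPM. Pmp22 had 644.2 and 887 RPM in females, and 816 and 877 RPM in males (log2 difference -0.16, SE 0.41, limma adjusted p = 0.999). Mal was under the minimum of 5 RPM in this comparison. Over all 9195 genes 0.0109% were called, which is Calca alone, named after its value was seen. The fit has 1 residual degree of freedom.

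Cooled preparations were compared with those at room temperature over the same gates, with sex as a covariate and 2 residual degrees of freedom. Mbp averaged 193.2 ± 3.80 RPM in the 2 cooled preparations, and 218.2 ± 225.1 RPM in the 3 at room temperature (log2 difference 0.08, SE 0.58, limma adjusted p = 0.967). Pmp22 averaged 882 ± 6.93 RPM when cooled, and 842 ± 211.8 RPM at room temperature (log2 difference 0.15, SE 0.40, limma adjusted p = 0.915). Mal averaged 2.81 ± 2.76 RPM when cooled, and 8.62 ± 9.27 RPM at room temperature (log2 difference -0.36, SE 1.00, limma adjusted p = 0.915). Of 9250 genes 0.681% were called, Degs1 the only gene of the 5 lists among them, in the lower direction. Cooling was used in session C alone and cannot be told apart from session or depth.

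Wells just inside and just outside the limits show how sharp the gates are. The 3 wells nearest above the Th limit (325.2 to 355.5 RPM of Th) held 576.2, 1.55 and 166.9 RPM of Mbp, and the 3 nearest below (285.1 to 296.3 RPM) held 0, 0 and 23.1 RPM. Their Pmp22 was 686.9, 1054 and 646.1 RPM above the limit, and 0, 571.6 and 1189 RPM below it. Around the Apoe limit, the 3 nearest wells above it (5841 to 6185 RPM) held 8.72, 124.04 and 0 RPM of Mbp, and the 3 below (4439 to 4794 RPM) 0, 284.9 and 0 RPM. 

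The wells under every limit held some of the highest values. Their Mbp averaged 156.2 ± 243.4 RPM over 5 preparations, and preparation 5 stood apart at 590.3 RPM. The highest Mbp of any kept well, 7618 RPM, was one of these, with Pmp22, Mal and Apoe all at 0. Another held 4171 RPM of Mbp with 71.9 RPM of Pmp22, and had Apoe at 0. The third highest Pmp22, 4371 RPM, was in a well without Mbp and with 18477 RPM of Dcn, a fibroblast gene. The highest Mal outside the Apoe gate, 814 RPM, came with Mbp, Pmp22 and Apoe at 0.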

How the data were processed

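The deposited table holds RPM (reads scaled to 1000000 per well) for 864 wells, which the authors made from reads aligned with Bowtie to mm9, per the submitters' processing notes. Repeated rows of a gene were summed to 23281 genes. In 841 columns whole reads could be recovered (99.5% of values within 0.1 of a whole number). Of the deposited columns, 4 from empty or medium wells hold whole numbers of unknown scale, read as a score and not used. The labels describe no molecular identifiers, so reads are not independent molecules.

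Single-cell wells with 1000 genes or more (86.9%) were gated, and RPM was averaged per gate and preparation with 3 wells or more (20 means). limma 3.58.1 (R 4.3.3; trend, robust, two-sided, Benjamini-Hochberg adjustment) was fitted to log2(RPM + 5) after dropping genes whose mean was under 5 RPM, with preparation, which the labels give for every well, as a block. Fold changes of low genes are understated on this scale. The fit was run on simulated counts with no extreme wells and no preparation differences beyond planted ones. Its outcome there need not hold for these data. Recovered reads were tested with edgeR 4.0.16 and DESeq2 1.42.0 as alternatives. Other alternatives changed limits, pseudocount, filter, block and preparations. Assigning wells over several limits, dropping 1 extreme well and keeping wells led by satellite glia markers were chosen after seeing the data.

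The members and the 5 gene lists were chosen with earlier results of these data known. Of each list and contrast up to 4 called genes were named, those with the largest log2 difference of the same sign in every preparation. For likeness the 5 highest rank correlations were named. Genes and wells singled out beyond this (Fabp7, Prx, Erbb3, Syp, Gpm6b and Cnp in the Th gate, and extreme wells) were chosen after their values were seen. Some genes counted in the lists are not reported here by name. Wilson intervals are at 95%, and a count of 0 allows 3.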

Additional observations from a re-analysis of the deposited data

Results flagged for a closer look

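Of 12 groups of 4 or 5 preparation means, 5 held a preparation whose distance from the nearest other, as a share of the range, exceeded Dixon's critical value. That value is made for independent, normally distributed values. These means come from skewed wells with many zeros, and the groups share preparations, so no chance rate can be set against the 5. Mbp in the Th gate was 955.75 RPM in preparation 2, from 3 wells. Mbp in the Tac1 gate was 131.5 RPM in preparation 5, from 10 wells, and in the Pvalb gate 82.7 RPM in preparation 4, where 1 of 4 wells held it. Pmp22 in the Tac1 gate was 4224 RPM in preparation 4, the mean with the well of 114170 RPM. Mal in the Mrgprd gate was 27.3 RPM in preparation 3, where 2 of 4 wells held it.

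The 33 wells labelled as holding more than 1 cell entered no comparison. Mbp was above 0 in 22 of them (median 34.7 RPM), Pmp22 in 28 (median 305.1 RPM) and Mal in 7 (median 0). Of the 24 control wells with recovered reads, 3 held Mbp, 9 Pmp22 and 0 Mal.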

How the results depend on the processing

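Taken within each preparation and averaged, with no model, the log2 difference of Th from the other neuron gates was 3.72 for Mbp and 1.97 for Pmp22 (3.60 and 1.99 in the limma fit), and of Apoe from the neuron gates 3.82 for Mbp and 3.64 for Mal. Using medians over wells gave 3.03 for Pmp22 (Th), 2.39 for Mbp (Apoe) and -0.14 for Mal (Apoe), and wells led by satellite glia markers gave 4.71 for Mbp. The rank correlation of Mbp and Mal became -0.033 with wells over several limits counted in each gate.

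Other myelin genes called in the 5 lists numbered 18 in the Apoe gate, 4 in Th, 8 in Mrgprd, 2 in Tac1 and 14 in Pvalb. Leaving out 1 preparation gave 10 to 21 (Apoe), 1 to 4 (Th), 4 to 6 (Mrgprd), 1 to 2 (Tac1) and 9 to 13 (Pvalb). Without the replicate block Th and Mrgprd had 2 each. Halved limits gave Th 2, Mrgprd 3 and Tac1 0, and doubled ones Mrgprd 3 and Tac1 1. With 2000 genes or more per well Th had 2. With no filter the Apoe gate had 11, Th 1, Mrgprd 4 and Tac1 1. A pseudocount of 1 left Tac1 with 1, and assigning wells over several limits gave Tac1 1 and Pvalb 22. edgeR called 4 in the Apoe gate and 4 in Tac1. DESeq2 called 7 (Apoe), 14 (Mrgprd) and 5 (Tac1). Over all genes, the number called ran from 0.197 (edgeR) to 2.24 times that reported for the Apoe gate, 0.5 to 2.24 for Th, 0.401 to 1.82 for Mrgprd, 0.361 to 5.39 (DESeq2) for Tac1 and 0.544 to 2.01 for Pvalb. Degs1 in the Apoe gate reversed to 0.35 with edgeR and 0.27 with DESeq2.

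For sex, leaving out 1 preparation gave -0.039 to 2.55 for Mbp and -0.34 to 0.016 for Pmp22, which was 0.11 with 2000 genes or more per well. For cooling it gave -1.30 to 1.11 for Mbp, -0.088 to 0.46 for Pmp22 and -0.81 to 0.23 for Mal. Mbp was -0.0096 with a pseudocount of 50, and Mal 0.060 with 2000 genes or more. Gates entering these fits changed with the limits. For every value that moved or reversed here, the cause was not tested. Depth limits zeros: 1 read at the median depth of the Tac1 gate is 10.2 RPM.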
